A study of Sus scrofa with 21 samples.

Results

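CXCL9, CXCL10 and CXCL11, the ligands of the chemokine receptor CXCR3, were followed in pig endometrium, the inner lining of the uterus, through conceptus attachment. Their members were the array probes whose RefSeq accession belongs to 1 of the 3 genes: 4 of the 43603 probes on the array and 3 of its 2389 named genes. CXCL9 had 1 probe (A_72_P442032), CXCL10 had 2 (A_72_P165266 and A_72_P509208) and CXCL11 had 1 (A_72_P442072), and all 4 were among the 30089 probes bright enough to be tested. The 3 genes were chosen from results of these same arrays, on their log2 differences between the groups, so their levels and differences are given as descriptions, with no test.

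RNA was measured on 21 one-colour Agilent porcine arrays, in 7 groups of 3. All animals were Large White sows. Endometrium from 9 sows, 3 on each of days 13, 18 and 24 after insemination, came from attachment sites, where a conceptus lay against the uterine wall, and from inter-sites, the stretches between conceptuses. The non-pregnant group was 3 sows given inactivated sperm and sampled on day 13, so there was no non-pregnant control of day 18 or day 24. The labels do not say which attachment site and inter-site came from 1 sow, and the samples are whole tissue. In whole tissue, a different number of cells of a type and a different amount of RNA per cell cannot be told apart.

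The 3 ligands are small secreted proteins that draw activated T cells and natural killer cells, which carry CXCR3. Interferon gamma, whose response runs in part through the transcription factor IRF1, is their best known inducer, which gave CXCL9 its older name of monokine induced by gamma interferon; CXCL10 also responds to type I interferons and to NF-kappa-B. In the pig the elongating conceptus itself secretes interferon gamma together with interferon delta around the time of attachment, and lymphocytes gather in the endometrium at attachment sites. In the RefSeq gene table of assembly Sscrofa11.1 the ligand genes are neighbours, in the order NAAA, SDAD1, CXCL9, ART3, CXCL10, CXCL11, NUP54 and SCARB2.

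A level here is the log2 processed signal of a probe minus the log2 of the 75th percentile of its array, so 0 is the signal of that percentile and a step of 1 is a doubling. Levels of different probes are not set against each other, since probes differ in how well they bind. Between 62.3% and 77.1% of the probes of an array were well above background, the flag of the scanner software for a signal clearly over its surroundings. CXCL9 and CXCL10 carried this flag on all 21 arrays. No member spot was saturated or marked as an outlier. Epithelial marker genes were bright in every group, with a summed log2 level over 7 genes between 6.16 and 7.85, as was the stromal marker DCN (7.27 to 8.61); for the B cell list, 0 of 5 genes had a tested probe.

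A pair of libraries stood apart from their groups. Over the tested probes, the library labelled day 13 inter-site replicate 1 correlated at 0.943 and 0.934 with the rest of its group. It correlated at 0.950, 0.950 and 0.968 with the non-pregnant arrays, and its best match was day 24 inter-site replicate 3 (0.97). The library labelled day 24 inter-site replicate 3 correlated at 0.942 with both others of its group and at 0.988 with non-pregnant replicate 3. DKK1, a secreted Wnt inhibitor, read -3.23 on the former and -6.13, not well above background, on the latter, against 4.52 to 5.25 on the other arrays of their groups and -5.37 to -4.62 in non-pregnant tissue. Both libraries thus went against their labelled groups for DKK1, and they enter the inter-site means of days 13 and 24; whether a label is wrong was not tested. Ligand means and differences that rest on these libraries are given with and without them. Among the 21 arrays, day 18 attachment site replicate 2 had the weakest best match, 0.957 with day 24 inter-site replicate 2, and non-pregnant replicate 3 matched best the apart day 24 library; these were not left out with the pair, and ligand differences between 2 groups are given without each where they enter.

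CXCL9 was highest at the attachment sites of day 18. Its levels there were 4.99, 2.69 and 2.70 on replicates 1, 2 and 3 (mean 3.46 ± 1.33, SD, n = 3). At the attachment sites of day 13 they were -1.79, -1.49 and -0.84 (mean -1.37 ± 0.48, SD, n = 3), and at those of day 24 they were -0.28, -2.34 and -1.21 (mean -1.28 ± 1.03, SD, n = 3). Every array of the day 18 attachment sites thus lay above every array of the other attachment sites. The inter-sites gave -0.52, -0.36 and -1.06 on day 13 (mean -0.65 ± 0.37, SD, n = 3). Without the apart replicate 1 the mean was -0.71 (n = 2). On day 18 the inter-site levels were -1.80, 1.76 and -0.33 (mean -0.12 ± 1.79, SD, n = 3). Replicate 2 was the high one of that group, and it still lay below the lowest attachment site of the same day.

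The other high values of CXCL9 came from single arrays. The non-pregnant levels were -1.40, -1.26 and 2.16 (mean -0.17 ± 2.02, SD, n = 3), with replicate 3 far above the rest of its group. The day 24 inter-sites gave -3.56, -2.58 and 1.42 (mean -1.57 ± 2.64, SD, n = 3), again with replicate 3 high, the library that resembled non-pregnant replicate 3; the mean of the group without it was -3.07 (n = 2). In the order of group means, the day 18 attachment sites came first and were separated from the next group, the day 18 inter-sites. Non-pregnant tissue, the day 13 inter-sites, the day 24 attachment sites, the day 13 attachment sites and the day 24 inter-sites followed, and each of these neighbours overlapped with the next.

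CXCL10 had its highest group means on day 18, first at attachment sites and then at inter-sites, though inter-site replicate 1 of that day read below some day 13 arrays. At the day 18 attachment sites its brighter probe read 7.61, 5.10 and 6.69 (mean 6.47 ± 1.27, SD, n = 3). At the day 18 inter-sites it read 1.69, 5.49 and 4.32 (mean 3.83 ± 1.94, SD, n = 3). Inter-site replicate 2 was above attachment site replicate 2, so these groups overlapped. On day 13 the levels were 2.87, 2.32 and 0.80 at attachment sites (mean 2.0 ± 1.07, SD, n = 3). The day 13 inter-sites gave 0.96, 3.72 and 1.22 (mean 1.97 ± 1.53, SD, n = 3), with replicate 2 as the high array; without the apart replicate 1 the mean was 2.47 (n = 2). None of these 6 arrays reached the lowest day 18 attachment site.

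By day 24 CXCL10 was low and even across the attachment sites. Their levels were 1.30, 1.23 and 0.84 (mean 1.12 ± 0.25, SD, n = 3), and those of the day 24 inter-sites 1.80, 0.71 and 1.70 (mean 1.4 ± 0.60, SD, n = 3; 1.25 without the apart replicate 3, n = 2). Non-pregnant tissue gave 0.36, 0.50 and 2.29 (mean 1.05 ± 1.08, SD, n = 3), with replicate 3 high as it was for CXCL9. From the day 18 attachment sites down through the day 18 inter-sites, the day 13 attachment sites, the day 13 inter-sites, the day 24 inter-sites, the day 24 attachment sites and non-pregnant tissue, every neighbour in the order of means overlapped with the next. The other CXCL10 probe read 0.60 to 1.11 lower on each array and followed the same course, with group means from 0.16 in non-pregnant tissue to 5.61 at the day 18 attachment sites; both probes correlated at 0.998 over the 21 arrays.

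CXCL11 was the dim member, and part of its range lay at background. The day 18 attachment sites gave -0.08, -1.64 and -2.13 (mean -1.28 ± 1.07, SD, n = 3). The day 18 inter-sites gave -5.38, -3.62 and -4.08 (mean -4.36 ± 0.91, SD, n = 3), and non-pregnant tissue -4.20, -3.95 and -2.39 (mean -3.51 ± 0.98, SD, n = 3). In these 3 groups the probe was well above background on every array, and the day 18 attachment sites lay above both other groups without overlap.

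On the attachment sites of days 13 and 24, CXCL11 lacked a signal well above background throughout. Its measured levels there were -5.95, -5.99 and -5.61 on day 13 (mean -5.85 ± 0.21, SD, n = 3) and -5.15, -6.62 and -5.90 on day 24 (mean -5.89 ± 0.74, SD, n = 3). At the inter-sites it was well above background on 1 of 3 arrays on each of these days. These were the 2 libraries that stood apart, day 13 inter-site replicate 1 at -4.67, against -5.60 and -5.40 for the others, and day 24 inter-site replicate 3 at -2.62, against -6.42 and -5.80. The inter-site means were -5.22 ± 0.49 (SD, n = 3) on day 13 and -4.95 ± 2.04 (SD, n = 3) on day 24; without the apart libraries they were -5.50 and -6.11 (n = 2 each). In the order of means the day 18 attachment sites stood above non-pregnant tissue, the day 18 inter-sites, the day 24 inter-sites and the day 13 inter-sites, which overlapped in that order; the day 13 inter-sites lay above the day 13 attachment sites, and these overlapped with the day 24 attachment sites.

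**Figure D1:**
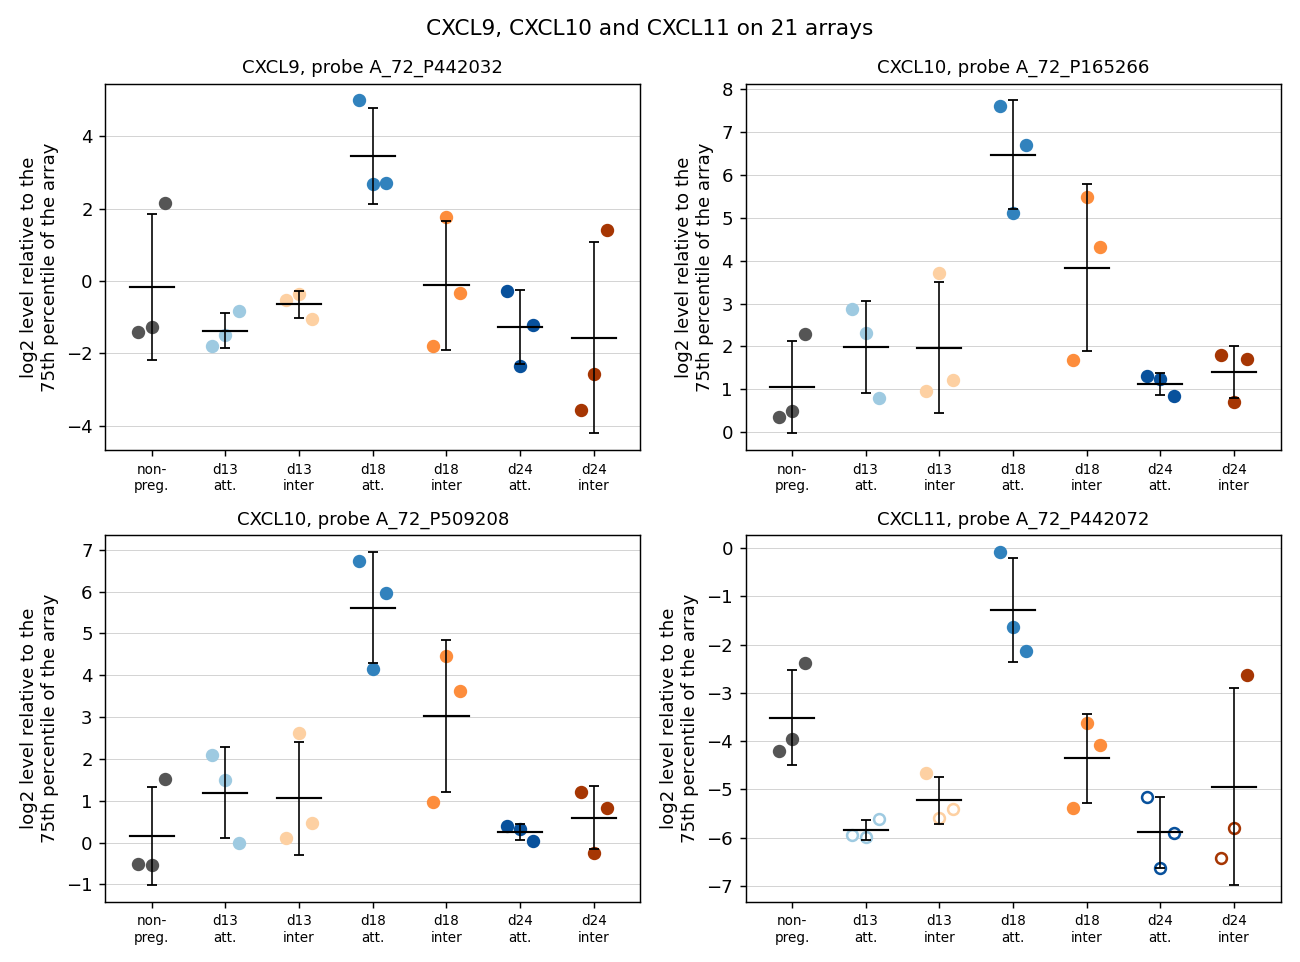
Log2 level of each member probe, relative to the 75th percentile of its array, on 21 arrays. Points are arrays in the order of replicates 1, 2 and 3 (open where the probe was not well above background), horizontal lines are group means and bars are SD (n = 3). The day 18 attachment sites hold the highest mean for all 4 probes, and CXCL11 is open on all 6 attachment-site arrays of days 13 and 24.

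The comparison of day 18 with day 13 asks what separates early from advanced attachment at sites with a conceptus. All 3 ligands were higher on day 18. CXCL9 differed by 4.83 ± 1.19 (log2, SE, n = 3 per group), which is 28.4-fold. CXCL10 differed by 4.47 ± 0.92 (22.2-fold), and by 4.42 ± 0.90 at its other probe. CXCL11 differed by 4.57 ± 0.80 as measured, but the day 13 sites gave no signal well above background. With day 13 levels not taken below the dimmest flagged level of any probe on their array, it was 19.4-fold higher. This is the lowest floor the flag allows, so the value is not a strict lower bound, and it carries no error. In this comparison 4 of 4 member probes were called as higher in the fit over all probes, where 0.987% of tested probes were, and the arrays did not overlap for 4 of 4, as for 10.8% of tested probes. The members were chosen with this contrast in view, so nothing is read from these counts.

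One slide carried both groups, with 1 array of each, and there the difference was 5.83 for CXCL9, 6.80 for CXCL10 and 5.53 for CXCL11; its day 18 array was replicate 1, the highest of its group for each ligand. With slide as a block the difference was 4.09, 4.94 and 4.12, and without day 18 attachment site replicate 2 it was 5.21, 5.15 and 4.75. With a different background correction (normexp) it was 4.37 for CXCL9 and 4.41 for CXCL10 but 1.65 for CXCL11, whose signal is near background. The number of ligands called was 1 of 3 with normexp, and 0 of 3 with slide as a block, in a fit of these 2 groups alone, and without day 13 attachment site replicate 2, replicate 3 or day 18 attachment site replicate 1.

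By day 24 the levels at attachment sites were lower again by a similar size. The log2 difference was -4.74 ± 1.19 for CXCL9 (SE, n = 3 per group), or 26.7-fold lower. For CXCL10 it was -5.35 ± 0.92, or 40.7-fold lower, and -5.36 ± 0.90 at the other probe. For CXCL11 it was -4.61 ± 0.80 as measured, or 14.3-fold lower with the same kind of floor for the day 24 arrays, again not a strict bound. Here too 4 of 4 member probes were called as lower, against 1.76% of tested probes, and 4 of 4 did not overlap, against 13.2%; nothing is read from these counts either. The number of ligands called was 1 of 3 with slide as a block and with normexp, and 2 of 3 without day 18 attachment site replicate 1 or day 24 attachment site replicate 2 or 3. Within the slide that held both groups, with 1 array of day 24 and 2 of day 18, the differences were -3.91, -5.06 and -4.01 for CXCL9, CXCL10 and CXCL11. Without day 18 attachment site replicate 2 they were -5.12, -6.03 and -4.78, and with normexp that of CXCL11 was -1.04. Both day comparisons use the day 18 attachment sites, so their sizes are not independent of each other.

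At inter-sites the differences measured between the same days were closer to 0. From day 13 to day 18 the log2 difference was 0.52 ± 1.19 for CXCL9, 1.87 ± 0.92 for CXCL10 and 0.86 ± 0.80 for CXCL11 (SE, n = 3 per group). Without day 13 inter-site replicate 1 these values were 0.59, 1.36 and 1.14. Between days 18 and 24 they were -1.45 ± 1.19, -2.43 ± 0.92 and -0.59 ± 0.80, and without day 24 inter-site replicate 3 they were -2.95, -2.58 and -1.75. The arrays of the groups overlapped for every ligand in both comparisons. By limma 0 of 4 member probes were called in either comparison, with 1 and 2 of 4 at an unadjusted p under 0.05. These were probes of CXCL10 only, 1 of them in the first comparison and both in the second. Of 30089 tested probes, 1648 and 4239 were at that p. Nothing is read from the member counts. Of all tested probes 0% were called higher and 0.00665% lower in the first comparison, and 0.0964% higher and 0.0465% lower in the second.

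The site comparison asks what is local to the conceptus. On day 18 attachment sites were above inter-sites by 3.58 ± 1.19 for CXCL9 (12-fold), 2.63 ± 0.92 for CXCL10 (6.2-fold) and 3.08 ± 0.80 for CXCL11 (8.43-fold; log2, SE, n = 3 per group). Arrays of the site types did not overlap for CXCL9 and CXCL11 but did for CXCL10; over all tested probes 3.92% lay without overlap in this direction. The limma fit called 0% of tested probes on day 18, with 1412 of 30089 probes at an unadjusted p under 0.05, and 0 of 4 member probes, with 4 of 4 at that p; the members were chosen with these differences in view, so nothing is read from their counts. No slide held both groups. Without day 18 attachment site replicate 2 the differences were 3.97, 3.31 and 3.25. With slide as a block the CXCL9 difference was 1.86, and with normexp that of CXCL11 was 1.54.

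On the other days no site difference of comparable size was measured. On day 13 attachment sites minus inter-sites gave -0.72 ± 1.19 for CXCL9, 0.03 ± 0.92 for CXCL10 and -0.63 ± 0.80 for CXCL11 (SE, n = 3 per group), and -0.66, -0.48 and -0.35 without day 13 inter-site replicate 1. CXCL11 arrays did not overlap, as for 9.68% of tested probes, but only 1 of these 6 arrays was well above background. On day 24 the differences were 0.30 ± 1.19, -0.28 ± 0.92 and -0.94 ± 0.80, and without day 24 inter-site replicate 3 they were 1.79, -0.13 and 0.22, so the sign for CXCL11 turned with this 1 library. The change of the site difference itself, day 18 minus day 13, was 4.31 ± 1.68 for CXCL9, 2.61 ± 1.30 for CXCL10 and 3.71 ± 1.14 for CXCL11 (SE), or 4.24, 3.11 and 3.43 without both apart libraries. For day 24 minus day 18 it was -3.29 ± 1.68, -2.91 ± 1.30 and -4.02 ± 1.14, or -1.79, -2.76 and -2.86 without both apart libraries. By limma 0 of 4 member probes were called in either contrast, with 2 and 3 of 4 at an unadjusted p under 0.05. The 3 included both CXCL10 probes. Of all tested probes 0% were called higher and 0% lower in the first contrast, and 0.00997% higher and 0% lower in the second. Of 30089 tested probes, 2378 and 966 were at an unadjusted p under 0.05. Nothing is read from the member counts.

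**Figure D2:**
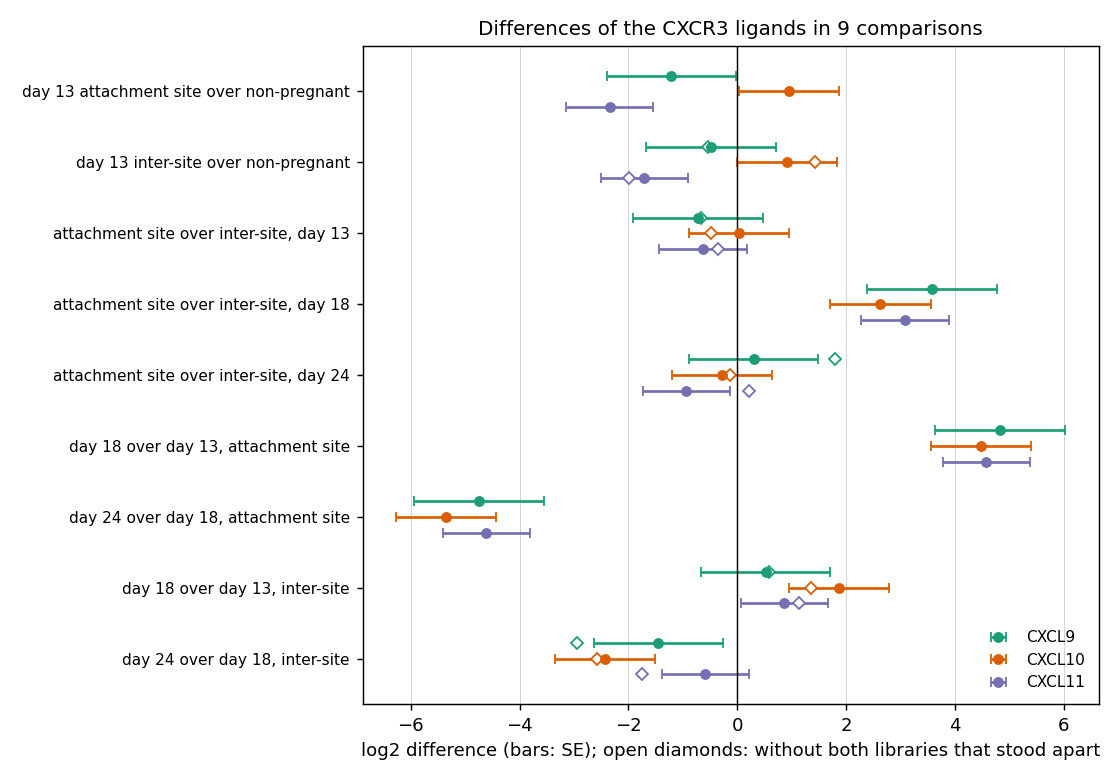
Log2 difference of CXCL9, CXCL10 (brighter probe) and CXCL11 in 9 comparisons (points; bars are SE, n = 3 arrays per group), with open diamonds where both apart libraries were left out. The points farthest from 0 are those of day 18 against day 13 and day 24 against day 18 at attachment sites, from 4.47 to 4.83 and from -5.35 to -4.61. CXCL11 values against a group not well above background are measured values, with no floor applied.

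Pregnancy on day 13 was compared with non-pregnant tissue, where replicate 3 was high for each ligand. The measured difference of CXCL11 was -2.34 ± 0.80 at attachment sites (log2, SE, n = 3 per group). With the floor described above for the day 13 arrays it was 4.15-fold lower, which is not a strict bound. At inter-sites it was -1.71 ± 0.80 as measured, with the probe well above background on only 1 of 3 day 13 arrays, the apart replicate 1; without that array it was -1.99, against a group not well above background throughout. All arrays of both day 13 groups lay below all non-pregnant arrays for CXCL11, as did 16.7% of tested probes at attachment sites and 11.9% at inter-sites. CXCL9 differed by -1.21 ± 1.19 and -0.48 ± 1.19 and CXCL10 by 0.95 ± 0.92 and 0.92 ± 0.92 (SE), with overlapping arrays. Without the apart inter-site library the inter-site values were -0.54 and 1.42. Without non-pregnant replicate 3, CXCL9 differed by -0.04 and 0.68, so its sign at inter-sites turned with this 1 array, CXCL10 by 1.57 and 1.54, and CXCL11 by -1.78 and -1.15 as measured; without day 13 inter-site replicate 2 the CXCL10 value at inter-sites was 0.04. With normexp the CXCL11 differences were -0.82 and -0.13. Of the member probes 0 were called by limma in either comparison (1 of 4 in each at an unadjusted p under 0.05). Over all tested probes 0.838% were called higher and 0.937% lower at attachment sites, and 0.143% and 0.309% at inter-sites. Of 30089 tested probes, 6092 at attachment sites and 5303 at inter-sites were at an unadjusted p under 0.05 (limma). Nothing is read from the member counts.

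Across arrays CXCL9 ran closer to CXCL11 than to CXCL10. As a description over 21 arrays, which share slides and groups, the level of CXCL9 correlated at 0.93 with CXCL11 and at 0.77 with CXCL10, and CXCL10 correlated at 0.68 with CXCL11. After the group means were taken away, CXCL9 and CXCL11 still correlated at 0.95, CXCL9 and CXCL10 at 0.52, and CXCL10 and CXCL11 at 0.36. In the pregnant groups of days 13 and 24, CXCL11 was well above background only on the apart inter-site libraries. Its correlations thus rest in part on readings near background. They were not computed without the apart libraries. Replicate 3 of non-pregnant tissue and that of the day 24 inter-sites were the highest of their groups for CXCL9 and CXCL11. For CXCL10 the former was also the highest of its group (2.29), and the latter, at 1.70, lay between the others of its group. Day 13 inter-site replicate 2 was the highest of its group for CXCL10 and CXCL9, with CXCL10 at 3.72 and CXCL11 not well above background.

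**Figure D3:**
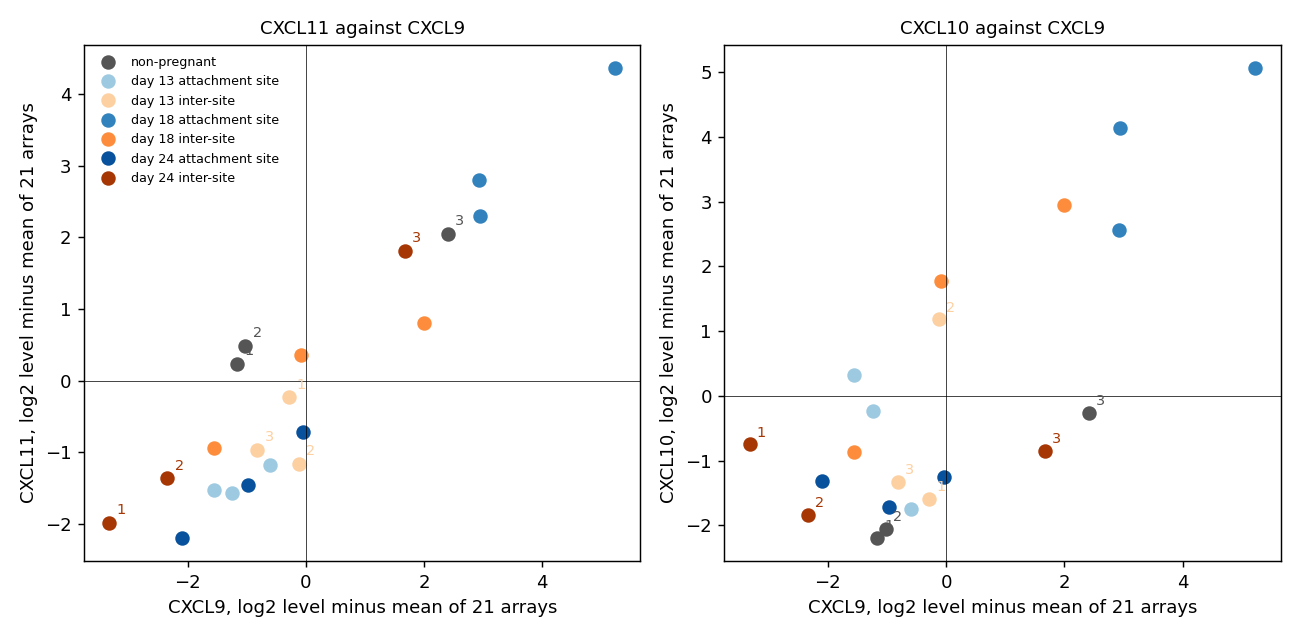
Log2 levels minus the mean of 21 arrays, for CXCL11 (left) and CXCL10 (right) against CXCL9; each point is an array coloured by group, and replicate numbers mark the non-pregnant, day 13 inter-site and day 24 inter-site arrays. CXCL9 and CXCL11 lie along 1 line (r = 0.93), while replicates 3 of non-pregnant tissue and of the day 24 inter-sites lie well below the course of CXCL10 (r = 0.77).

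Upstream of the ligands stands interferon gamma. Its gene IFNG read -0.92, 2.27 and -0.48 at the day 18 attachment sites (mean 0.29 ± 1.73, SD, n = 3). The day 18 inter-sites read -4.30, -3.31 and -4.20 (mean -3.93 ± 0.55, SD, n = 3), so the site types did not overlap. On day 13 the attachment sites spread from -5.68 to -1.14, and on day 24 from -3.14 to -1.82. IFNG differed by 3.79 ± 1.08 as measured between days 18 and 13 at attachment sites and did not pass the threshold (limma adjusted p = 0.0736). It was well above background on 2 of 3 of these day 13 arrays, and not on replicate 3 at -5.68. Over 15 other settings the difference lay between 2.23 and 4.97 (limma adjusted p 0.0377 to 0.263, with 2 under the threshold). The day 18 site difference was 4.22 ± 1.08 (limma adjusted p = 0.981). Attachment site replicate 2 of day 18 was highest for IFNG but lowest of its group for CXCL10, and it also carried the highest summed level of conceptus markers among the day 18 arrays, 8.86 against 5.43 and 5.53 at the other attachment sites.

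Among 13 tested genes of interferon gamma signalling, 3 rose from day 13 to day 18 at attachment sites and 0 fell, with a median of 1.2 against 0.01 over all tested probes. Among them IRF1, a transcription factor of the interferon response, rose by 2.26 ± 0.54 (limma adjusted p = 0.043), from levels of 2.06, 1.18 and 1.01 to 4.64, 2.31 and 4.10, and IL12RB1, a receptor chain for interleukins that promote interferon gamma production, by 2.12 ± 0.52 (limma adjusted p = 0.047). From day 18 to day 24, IRF1 fell by 2.35 ± 0.54 (limma adjusted p = 0.0198) and IL15, a cytokine that sustains natural killer cells, by 1.43 ± 0.40 (limma adjusted p = 0.0451). SOCS3, an inhibitor of cytokine signalling, rose by 1.91 ± 0.43 (limma adjusted p = 0.0176).

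These calls depended on the setting. The count of 3 for day 18 against day 13 was 0 with median scaling, with no filter on dim probes, with slide as a block and in a fit of the 2 groups alone. It was 0 without day 13 attachment site replicate 2, replicate 3 or day 18 attachment site replicate 1, 1 with normexp and without day 13 replicate 1, and 5 without day 18 replicate 3. IRF1 was called in 6 of 15 other settings, where its difference was 1.79 to 2.95, and IL12RB1 in 4 of 15 (0.73 to 2.69). For day 24 against day 18 the count was 3, and 0 with slide as a block, in a fit of the 2 groups alone and without day 18 attachment site replicate 3 or day 24 attachment site replicate 2 or 3; it was 1 with normexp and without day 18 replicate 1. IL15 was called in 2 of 15 other settings, and 1 of its 2 probes was called.

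**Figure D4:**
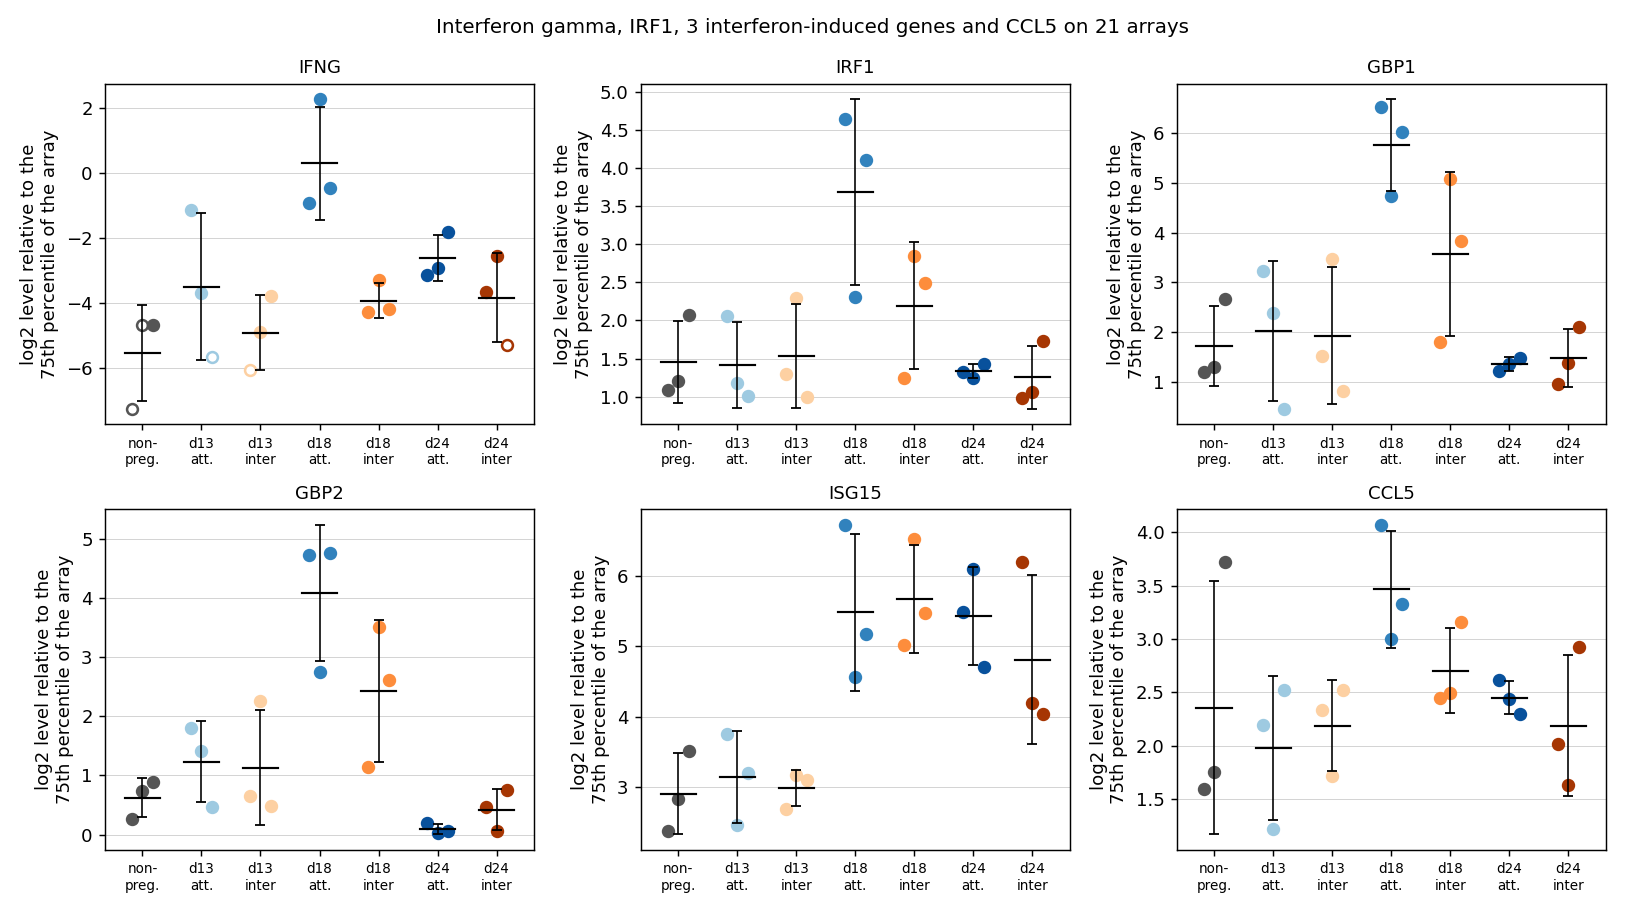
Log2 levels, relative to the 75th percentile of the array, of IFNG, IRF1, GBP1, GBP2, ISG15 and CCL5 on 21 arrays (points; open where not well above background) with group means (lines) and SD (bars, n = 3). IFNG means are 0.29 at the day 18 attachment sites and -3.93 at the day 18 inter-sites, while ISG15 means are 5.48 and 5.67.

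Genes known as interferon gamma targets, the group to which the ligands belong, gave the largest count of any list. Of 25 tested targets, 15 rose from day 13 to day 18 at attachment sites and 0 fell; 24 of 25 differences were above 0, and their median was 2.02 against 0.01 over all tested probes. The guanylate-binding proteins GBP1 and GBP2, which attack intracellular microbes, rose by 3.73 ± 0.83 and 2.85 ± 0.61 (limma adjusted p = 0.035 and 0.0308). UBD, a ubiquitin-like modifier, rose by 2.76 ± 0.52 (limma adjusted p = 0.0236). PSMB8, PSMB9 and PSMB10, the catalytic subunits of the immunoproteasome, rose by 2.73, 2.71 and 2.06 (limma adjusted p = 0.045, 0.0201 and 0.0236). SLA-3, an MHC class I gene that shares sequence with its class I relatives, rose by 2.30 ± 0.35 at its brightest probe (limma adjusted p = 0.0102); 3 of its 7 probes were called, with differences of 1.29 to 2.30. The remaining 8 that rose were PSME2, B2M, CD74, SLA-DRA, SLA-DQA1, SLA-DQB1, SLA-DMA and SLA-DMB, of the proteasome activator and the MHC; for SLA-DMA and SLA-DMB 1 of 2 probes each was called.

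From day 18 to day 24, 8 of the 25 targets fell at attachment sites and 0 rose, with a median of -1.19 against 0 over all tested probes. GBP1 fell by 4.40 ± 0.83 (limma adjusted p = 0.00809) and GBP2 by 3.98 ± 0.61 (limma adjusted p = 0.0027), while UBD fell by 3.35 ± 0.52 (limma adjusted p = 0.00327). PSMB9, PSMB10, PSME1, TAP1, the peptide transporter of antigen presentation, and SLA-8 completed the 8. SLA-DMA and SLA-DMB, which load peptide onto MHC class II, differed by -1.36 and -1.56 (limma adjusted p = 0.0917 and 0.0937). On day 18 the attachment sites exceeded the inter-sites for 24 of 25 targets, with a median of 0.94 against 0, and 0 passed the threshold (limma; 12 at an unadjusted p under 0.05).

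The count of 15 targets depended on single arrays. It was 9 without day 13 attachment site replicate 1, 0 without its replicate 2, 2 without its replicate 3 and 0 without day 18 attachment site replicate 1; it was 0 with slide as a block and in a fit of the 2 groups alone, and 8 with no filter on dim probes. The count of 8 lower targets ranged from 3 to 12: 3 without day 18 attachment site replicate 1 or day 24 attachment site replicate 2, 4 without day 18 replicate 3 or day 24 replicate 3, 5 without day 24 replicate 1, and 12 without day 18 replicate 2.

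The antiviral interferon-stimulated genes, which type I interferons induce strongly, were taken as a list of their own. Of 19 tested, 1 rose from day 13 to day 18 at attachment sites, MX2 (2.55 ± 0.62, limma adjusted p = 0.0467), with a median of 1.10. MX2 was called in 4 of 15 other settings (limma adjusted p 0.0141 to 0.217), and the count for the list was 0 to 6 leaving out 1 array. At inter-sites the median was 1.09 against -0.07 over all tested probes, and 0 passed (limma, with 13 at an unadjusted p under 0.05). ISG15, a ubiquitin-like antiviral protein, differed by 2.34 ± 0.62 at attachment sites and 2.68 ± 0.62 at inter-sites (limma adjusted p = 0.0594 and 0.515; 2.53 at inter-sites without day 13 inter-site replicate 1). MX1, a GTPase that blocks viruses, differed by 1.36 ± 0.62 and 1.48 ± 0.62 (limma adjusted p = 0.218 and 0.876; 1.5 at inter-sites without that library). On day 18 the site difference was -0.19 ± 0.62 for ISG15 and -0.29 ± 0.62 for MX1 (limma adjusted p = 0.99 and 0.984), and its sign turned with slide as a block and without day 18 replicate 2 of either site type. From day 18 to day 24 at attachment sites ISG15 differed by -0.05 and MX1 by -0.13 (SE 0.62 each, limma adjusted p = 0.971 and 0.925). There 1 gene of the list fell, STAT2, by 1.29 ± 0.31 (limma adjusted p = 0.0235). STAT2 was called at 2 of its 5 probes, and its brightest probe in 8 of 15 other settings. Whether the course of the ligands differs from that of these genes was not tested.

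CXCR3 itself had no probe of that symbol and was not analysed here. DPP4, the peptidase that trims the ligands and weakens them, differed by 2.96 ± 0.93 from day 13 to day 18 at attachment sites and by 2.41 ± 0.93 from day 18 to day 24 (limma adjusted p = 0.0934 and 0.133), reaching a mean of 6.75 ± 0.55 (SD, n = 3) on day 24. Over 15 other settings it was called in 1 for the former difference (limma adjusted p 0.0483 to 0.286) and in 0 for the latter (limma adjusted p 0.0514 to 0.328). Without both apart libraries, which are in neither comparison and enter only the shared spread, it was called in both (limma adjusted p = 0.0358 and 0.0489). Of the 8 tested genes of CXC receptors and other CXC ligands, 0 passed in either of these comparisons (limma; 2 and 3 at an unadjusted p under 0.05). The neutrophil attractant CXCL8 differed by 1.05 ± 0.83 from day 13 to day 18 at attachment sites, and CXCL12, a ligand of CXCR4, by 1.19 ± 0.72 (limma adjusted p = 0.488 and 0.354). CXCL8 fell by 4.13 ± 0.83 at day 13 attachment sites against non-pregnant tissue (limma adjusted p = 0.0279), as measured, since it was well above background on 2 of 3 day 13 arrays. Over 15 other settings this difference lay between -4.60 and -1.61, the latter with normexp, and it was called in 8 of them (limma adjusted p 0.0284 to 0.303).

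Of 21 tested CC, CX3C and XC chemokines and receptors, 3 rose and 1 fell from day 13 to day 18 at attachment sites, with a median of 1.49. CCL2 and CCL8, attractants of monocytes, rose by 3.14 ± 0.49 and 2.66 ± 0.53 (limma adjusted p = 0.0117 and 0.0257). CCL28, a mucosal chemokine made by epithelium, fell by 3.05 ± 0.75 (limma adjusted p = 0.0489). The count of 4 was 0 without day 13 attachment site replicate 2 or day 18 attachment site replicate 1, 1 without day 13 replicate 3, 2 without day 18 replicate 2 and 8 without day 18 replicate 3. CCL5, another T cell attractant, differed by 1.49 ± 0.50 (limma adjusted p = 0.11). Between days 18 and 24, 0 of the 21 passed (limma, with 9 at an unadjusted p under 0.05). CCL2 differed by -1.62 ± 0.49 and CCL8 by -1.74 ± 0.53 (limma adjusted p = 0.0616 and 0.0626). Without both apart libraries, which enter only the shared spread here, the limma adjusted p was 0.0429 and 0.063. The NF-kappa-B and TNF list had 0 of 10 genes past the threshold from day 13 to day 18 (limma; 1 at an unadjusted p under 0.05), and its median was 0.24.

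Over all 6 lists, 22 of 96 tested genes rose and 1 fell from day 13 to day 18 at attachment sites, and 2 rose and 11 fell from day 18 to day 24. The lists were drawn up with earlier results of these arrays known, so their direction is not independent evidence. The count of 23 for day 18 against day 13 was 13, 0 and 3 without day 13 attachment site replicates 1, 2 and 3, and 0, 19 and 37 without those of day 18. The count of 13 for day 24 against day 18 was 6, 17 and 5 without day 18 attachment site replicates 1, 2 and 3, and 9, 4 and 5 without those of day 24. Against non-pregnant tissue, 0 rose and 2 fell at day 13 attachment sites, CXCL8 and the double-stranded RNA sensor TLR3 (by 1.25, limma adjusted p = 0.0292), and 0 passed at day 13 inter-sites (limma; 10 at an unadjusted p under 0.05). The count of 2 was 4 without non-pregnant replicate 3 and 0 without any other single array of these groups.

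The 10 genes whose levels ran most like the ligands were taken from 2015 named genes by the mean of their correlations with CXCL9, CXCL10 and CXCL11 over 21 arrays, as a description. CD180, a Toll-like receptor relative on B cells and myeloid cells, had the highest mean (0.88), followed by PSMB9 (0.86), IRF1, CASP1, the protease that activates interleukin-1 beta, and UBD (0.84 each). GBP1 and SLA-DMA (0.83 each), PSMB10 (0.82), TNFSF10, a death receptor ligand, and SLA-DMB (0.81 each) completed them. The members leaned on different genes: GBP1 correlated at 0.98 with CXCL10, 0.80 with CXCL9 and 0.72 with CXCL11, whereas PSMB10 correlated at 0.92 with CXCL11 and 0.69 with CXCL10. After removal of group means these were 0.93, 0.54 and 0.41 for GBP1, and 0.78 and 0.67 for PSMB10. CCL5 ranked 44 (mean 0.71), IFNG 151 (0.43) and ISG15 199 (0.34). After removal of group means, IRF1 correlated at 0.88 with CXCL10, 0.60 with CXCL9 and 0.49 with CXCL11, and IFNG at 0.10, -0.21 and -0.26.

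**Figure D5:**
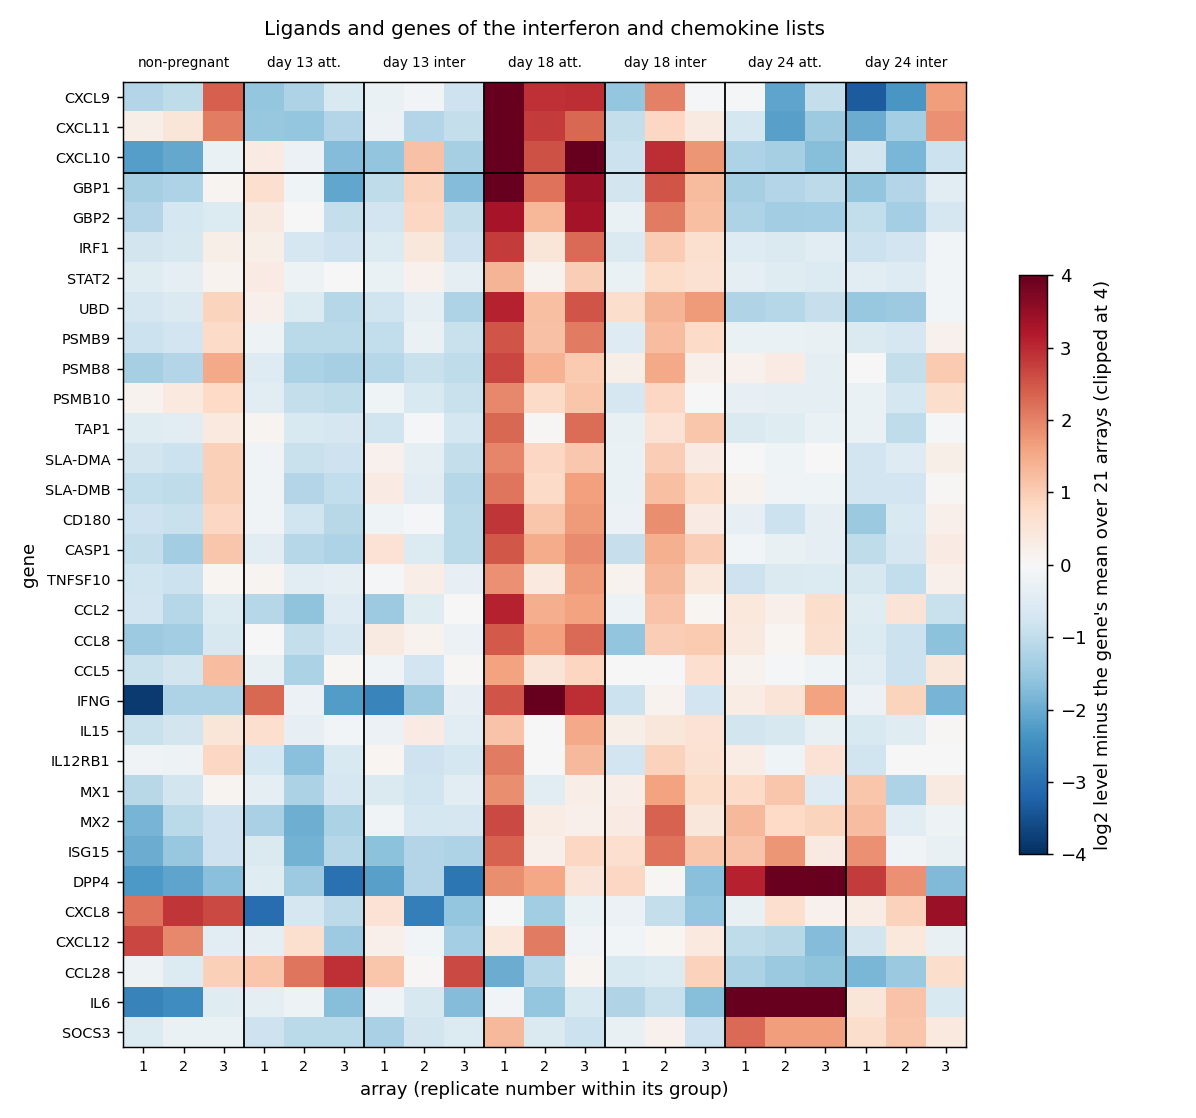
Log2 level minus the mean of the gene over 21 arrays (colour, clipped at 4) for the ligands (top 3 rows) and named genes of the interferon and chemokine lists or of the likeness ranking; columns are arrays, numbered by replicate within 7 groups. Day 18 attachment sites are warm for the ligands and for targets such as GBP1, whose mean there was 5.75 against 2.02 on day 13, while IL6 and DPP4 are warm at the day 24 attachment sites.

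Markers of immune cells were measured beside the ligands. For T and natural killer cells, 12 of 22 genes were tested, and CD2 and CD3D rose from day 13 to day 18 at attachment sites (2 of 12, median 1.51), while GZMA and GZMB fell from day 18 to day 24 (2 of 12, median -1.41). Their summed log2 level was 2.90 to 4.05 at the day 18 attachment sites, 2.81 to 2.99 at those of day 13, 2.12 to 2.27 at those of day 24 and 3.00 to 3.73 at the day 18 inter-sites. Of the macrophage and dendritic cell list, 8 of 12 were tested and 1 rose to day 18, FCGR3A (median 1.57). From day 18 to day 24, CD163 rose and 0 fell (median -0.6). The summed level, which follows the brightest genes, was 5.72 to 6.54 at the day 18 attachment sites, 4.18 to 4.89 on day 13 and 5.24 to 5.61 on day 24. The median level of the 8 genes on an array went otherwise, with 0.83 to 1.06 on day 18, 1.05 to 1.41 on day 13 and 1.85 to 2.17 on day 24. Of the neutrophil list 3 of 6 genes were tested, S100A8, S100A9 and S100A12, and at attachment sites they were lowest on day 18. Their summed level was 5.30, 4.38 and 0.65 on day 13, -0.25, -1.10 and -1.51 on day 18 and 1.76, 2.90 and 1.66 on day 24, so day 18 lay below both without overlap. From day 13 to day 18 their median difference was -3.51 and 0 of 3 passed (limma; 3 at an unadjusted p under 0.05); from day 18 to day 24 it was 2.58 and S100A12 rose. The part of these cells in the levels of CXCL9, CXCL10 and CXCL11 was not tested.

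Markers of other tissues were set beside the ligands as well. The conceptus list, of which 11 of 19 genes were tested and which includes IFNG, summed to 5.43 to 8.86 at the day 18 attachment sites, 4.5 to 5.17 at those of day 13 and 8.61 to 9.45 at those of day 24, where the ligands were low; HBE1 rose to day 18, and CYP19A3, GATA3 and AFP rose from day 18 to day 24 (1 and 3 of 11). Smooth muscle markers (3 of 8 tested) varied within groups, from 6.34 to 10.59 at the day 18 attachment sites and 5.18 to 9.27 on day 13, with the highest value on replicate 2 in each. CXCL9 on these arrays was 2.69 and -1.49. In non-pregnant tissue the smooth muscle sum was 10.35, 10.23 and 5.12 on replicates 1, 2 and 3, the last being the array high for each ligand. At the day 13 inter-sites the sum was 5.05 to 5.73. Epithelial markers had a median difference of -1.17 from day 13 to day 18 at attachment sites, and 0 of 7 passed (limma; 6 at an unadjusted p under 0.05). From day 18 to day 24 there it was 1.05, and CDH1 rose (limma, 1 of 7, with 5 at an unadjusted p under 0.05). Endothelial markers (3 of 6 tested) summed to 3.64 to 4.89 at the day 18 attachment sites, 3.68 to 4.44 on day 13 and 4.29 to 4.9 on day 24, and 0 of 3 passed in either comparison (limma; 0 at an unadjusted p under 0.05). The part of these tissues in the ligand levels was not tested.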

How the data were processed

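Intensity values were used as deposited by the authors, 1 scanner file per array. Agilent Feature Extraction made them (10.7.3.1 per the file headers; 10.7 per the submitters' processing notes) and subtracted background within each array, per the file headers. Other columns used were the software's flags, deposited as 0 or 1 scores, and median signals of spots and of their background. The authors' deposited table of log2 values, quantile normalized to a median of 5.85 in each column, served only as an alternative; 19 of its 21 columns matched best the scanner file of their own sample, and those of day 24 inter-site replicates 2 and 3 were crossed.

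Control spots (1417 of 45220) and outlier spots were left out and repeat spots averaged. The log2 processed signal minus that of the array's 75th percentile (354 to 855) was fitted over 21 arrays and 7 group means with limma 3.58.1 (lmFit, eBayes; 14 residual and 2.71 prior degrees of freedom) in R 4.3.3. A probe was tested if some group had it well above background on each of its 3 arrays (30089; 13514 were left out), with Benjamini-Hochberg adjustment within each of 9 comparisons and 2 contrasts of the site difference; a call is an adjusted p under 0.05. The script was tested on simulated data. Of 5779 probes with a RefSeq accession, 5461 matched 1 symbol; the brightest probe stood for a gene.

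The members and lists were chosen with earlier results of these data known. Named genes were the members, IFNG, IRF1, DPP4, CXCL8, CXCL12, CCL5, MX1 and ISG15, up to 6 called genes per list and comparison, and the 10 most like the members; other called genes are named without values. The labels tie no arrays to 1 sow. SE and p-values rest on the spread of each probe within groups of 3 arrays, pooled over all 7 groups and moderated over probes. The fit treats the 21 arrays as independent, although the attachment sites and inter-sites came from the same 9 sows. Precision is limited by the number of arrays and, for CXCL11, by its signal over background. Alternatives were quantile and median scaling, normexp (offset 50; on median spot signal, the mean signal not being a column used here), the authors' table, no filter, only the groups compared, slide or replicate number as a block, the mean of all probes of a gene, and leaving out each array or both apart libraries. Sequences and promoter motifs were not analysed here, and some list genes that the counts include are not reported here by name.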

Additional observations from a re-analysis of the deposited data

How the results depend on the processing

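Of 567 alternative values for the ligand differences and their site-by-day contrasts, 545 moved by less than 1 SD between replicates, 22 moved more and 0 of the called ones changed sign. With normexp, which adds an offset that compresses dim probes, CXCL11 gave -0.82 and -0.13 for day 13 attachment sites and inter-sites against non-pregnant tissue, 1.54 and 0.62 for attachment over inter-site on days 18 and 24, 1.65 and -1.04 for the day 18 over 13 and day 24 over 18 comparisons of attachment sites, -0.58 for day 18 over 13 at inter-sites, and 2.23 and -0.92 for the change of the site difference. With slide as a block the CXCL9 site difference of day 18 was 1.86. Without both apart libraries CXCL9 and CXCL11 gave 1.79 and 0.22 for the site difference of day 24, -2.95 and -1.75 for day 24 over 18 at inter-sites, and -1.79 and -2.86 for the change of the site difference from day 18 to 24. Leaving out 1 array gave, for CXCL9 and CXCL11, -0.70 to 1.79 and -1.68 to 0.22 for the site difference of day 24, -2.95 to -0.45 and -1.75 to 0.15 for day 24 over 18 at inter-sites, and -4.28 to -1.79 and -4.75 to -2.86 for that change.

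The count of list genes called was 23 for day 18 over 13 at attachment sites; it was 15 with median scaling, 12 with normexp, 10 with no filter, 1 with slide as a block, 0 with only the groups compared and 0 to 37 leaving out 1 array. For day 24 over 18 it was 13, and 4 with slide as a block, 7 with only the groups compared and 4 to 17 leaving out 1 array. For day 13 attachment sites over non-pregnant tissue it was 2, and 0 with normexp, 1 with no filter, 0 with slide as a block, 6 with only the groups compared and 0 to 4 leaving out 1 array. For day 13 inter-sites over non-pregnant tissue it was 0, and 2 with median scaling, 5 without both apart libraries and 0 to 4 leaving out 1 array. For the site difference of day 24 it was 1, IL6, and 0 with only the groups compared. The cause of these changes was not tested. The sign of the day 18 site difference turned for MX1 (0.05 with slide as a block, 0.20 and 0.08 without day 18 attachment site or inter-site replicate 2) and for ISG15 (0.43, 0.27 and 0.24 in the same order); leaving out 1 array gave -0.94 to 0.20 for MX1 and -0.80 to 0.27 for ISG15.

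Over all probes, the count for day 18 over 13 at attachment sites was 540, against 111 with normexp, 205 with no filter, 12 with slide as a block, 3 with only the groups compared and 9 to 3730 leaving out 1 array; the share of these calls that were higher was 55% and 73% with normexp. For day 24 over 18 it was 1690, against 207 with normexp, 394 with slide as a block, 486 with only the groups compared and 261 to 1623 leaving out 1 array; the higher share was 68.6% and 80.2% with normexp. Normexp moved the median of all probes by 0.26 in the latter comparison. The replicate numbers were not taken as pairs, since the labels tie none to a sow: over 9 same-numbered pairs of sites the deviations correlated between -0.11 and 0.49, with 4 above 0.1, and not every sample correlated best with its own number, which leaves the pairing undecided. With the replicate number as a block, 24 list genes were called for day 18 over 13 and 16 for day 24 over 18 at attachment sites, and 762 and 1788 probes.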

Other observations

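IL6, a cytokine of the NF-kappa-B list, was called between days 18 and 24. At attachment sites it differed by 0 ± 0.62 from day 13 to day 18 (log2, SE) and rose by 5.92 ± 0.62 from day 18 to day 24 (limma adjusted p = 0.000185), when CXCL9, CXCL10 and CXCL11 were lower. On day 24 attachment sites exceeded inter-sites by 4.81 ± 0.62 (limma adjusted p = 0.00256; 4.33, limma adjusted p = 0.023, without both apart libraries), the 1 list gene called in a site comparison. All 3 IL6 probes were called in both comparisons, with differences of 5.13 to 6.18 and 4.30 to 4.94.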
